A study of Mus musculus with 12 samples.

Results

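The 10 genes described here are protein-coding genes whose row in the short RNA table was almost emptied in mouse embryonic stem (ES) cells that lack Drosha: Clcn5, Vmp1, Map2k4, Spaca6, Gap43, Mcm7, Xkr6, Tlcd2, Huwe1 and Slit3. They were taken by name from 36883 rows per table, of which 18740 carry the single name of a RefSeq protein-coding gene, and they were chosen by their low short RNA values in Drosha-deficient cells. The question was whether the mRNA and the long RNA of the same genes moved as well. Drosha-deficient ES cells were compared with wild-type ES cells, and both were cultured with serum and leukemia inhibitory factor. Each genotype had 1 library of poly(A)-selected mRNA, 1 of long RNA and 1 of short RNA, so no value below has a replicate or a test. The labels of the RNA samples give neither strain nor allele nor clone number. The methylation samples of the series name the lines as AB1, of the 129Sv/Ev background, for wild type and a Drosha-deficient derivative of AB1, and do not say whether the RNA came from them. Of 12 samples in the series, 6 RNA libraries are used.

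Many microRNAs are made from a hairpin that lies inside another gene, often in an intron. Drosha, a nuclear ribonuclease, works with its partner Dgcr8 and cuts the hairpin out of the primary transcript, and Dicer then trims it to the mature microRNA. When the hairpin sits in the intron of a coding gene, the same transcript can in principle give both a microRNA and a spliced mRNA, and a cut in an exon would destroy the mRNA.

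RefSeq (GRCm38.p6) placed 20 microRNA genes at the 10 loci, 6 loci with 1 hairpin and 4 with more. Clcn5 on chromosome X, which encodes a chloride and proton exchanger of endosomes, holds Mir500, Mir501, Mir362, Mir188 and Mir532 between 70.9 and 81.6 kb from its start. Mcm7 on chromosome 5, a subunit of the replicative helicase, holds Mir106b, Mir93 and Mir25 within 6293 to 6707 bases of its start, in a gene of 7.53 kb. Huwe1 on chromosome X, a very large ubiquitin ligase of the HECT class, holds Mirlet7f-2, Mir98 and Mir3113. Spaca6 on chromosome 17, a sperm membrane protein needed for fusion with the egg, holds Mir99b, Mirlet7e and Mir125a. The others hold a single hairpin. Mir744 lies in Map2k4 (chromosome 11), a kinase that activates the stress kinases JNK and p38. Mir218-2 lies in Slit3 (chromosome 11), a secreted guidance cue for Robo receptors, 495 kb from its start in a gene of 587 kb. Mir6540 lies in Gap43 (chromosome 16), a membrane protein of growing axons, and Mir598 in Xkr6 (chromosome 14), a member of the XK family of membrane proteins. Mir21a lies 209 bases before the end of Vmp1 (chromosome 11), an endoplasmic reticulum protein needed to build autophagosomes.

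By position, 9 of the 10 genes hold a hairpin inside their RefSeq span. A hairpin on the same strand was seen for 7 of them. The strands of Gap43, of Xkr6 and of Mir598 were missing from the sources used, so those pairs rest on position alone. Mir22 lies 4213 bases before Tlcd2 (chromosome 11), a TLC domain protein that affects membrane fluidity, and inside the neighbouring long noncoding transcript Mir22hg. The row named Tlcd2 covers both, from position 75461539 to 75470899, and in the long RNA table the same row is named Mir22hg,Tlcd2. Its values are therefore those of both transcripts. The Slit3 row carries a second name, Gm12122, in the long RNA table, so 8 of the 10 rows have exactly the member's name there, and the other 2 were matched by row identifier. Which exons or introns hold the hairpins was not read, since the table of genes used here has no exons.

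The hairpin of Mir21a (chr11:86584067-86584158, minus strand) is shown whole, because its host had the highest short RNA level of the 10 in wild-type cells. Capitals mark the arms that become the mature miR-21a-5p and miR-21a-3p.
Mir21a: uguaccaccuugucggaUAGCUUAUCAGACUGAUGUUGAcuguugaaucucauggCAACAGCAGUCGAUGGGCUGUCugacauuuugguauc

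The mature sequences below show which microRNAs of these loci share a seed, bases 2 to 8, given in capitals. Mirlet7e lies outside the Spaca6 row and has no row of its own, so no value here shows its loss. Where a row holds several hairpins, the loss of each was not resolved. Which arm the reads came from is not recorded in the tables. First come those that share a seed with another microRNA of these loci.
let-7e-5p (Spaca6): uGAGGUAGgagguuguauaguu
let-7f-5p (Huwe1): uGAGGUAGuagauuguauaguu
miR-98-5p (Huwe1): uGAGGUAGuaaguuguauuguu
miR-93-5p (Mcm7): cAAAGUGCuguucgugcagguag
miR-106b-5p (Mcm7): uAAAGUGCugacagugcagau
miR-500-3p (Clcn5): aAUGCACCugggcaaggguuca
miR-501-3p (Clcn5): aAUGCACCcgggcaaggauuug
miR-500-5p (Clcn5): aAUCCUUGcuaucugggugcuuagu
miR-362-5p (Clcn5): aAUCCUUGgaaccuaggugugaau
The let-7 seed thus occurs in 2 of the hosts, Spaca6 and Huwe1, and the other shared seeds each stay within 1 host. The RefSeq table holds 11 mature microRNAs with the let-7 seed and 7 with the seed of miR-93-5p and miR-106b-5p, so these loci carry only part of each family.

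Next comes 1 arm for each host not yet shown that has a sequence in the table, together with miR-125a-5p of Spaca6 and miR-25-3p of Mcm7.
miR-21a-5p (Vmp1): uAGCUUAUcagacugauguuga
miR-744-5p (Map2k4): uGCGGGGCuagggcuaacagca
miR-125a-5p (Spaca6): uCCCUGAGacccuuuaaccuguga
miR-6540-3p (Gap43): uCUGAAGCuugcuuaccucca
miR-25-3p (Mcm7): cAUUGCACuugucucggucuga
miR-22-3p (Tlcd2 row): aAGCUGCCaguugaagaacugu
miR-218-5p (Slit3): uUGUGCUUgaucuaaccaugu
Of these, the seed of miR-25-3p is shared by 6 mature microRNAs of the table and that of miR-125a-5p by 5, none of them elsewhere among the 10 loci.

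Values are FPKM, which divide a row's fragments by transcript length and by library size, as the authors deposited them. The log2 difference is log2((Drosha-deficient FPKM + 1)/(wild-type FPKM + 1)), and a row is called (higher or lower in the Drosha-deficient library) at 2-fold on that scale, if it has the authors' status OK and reaches 1 FPKM in at least 1 library. From the steps between low values, 1 fragment on 1 kb stood for about 0.0414 FPKM in the Drosha-deficient and 0.0470 FPKM in the wild-type mRNA library, 0.0459 and 0.0547 FPKM in the libraries of long RNA, and 0.342 and 0.377 FPKM in those of short RNA. This puts the mRNA libraries near 24200000 and 21300000 fragments, those of long RNA near 21800000 and 18300000, and those of short RNA near 2900000 and 2700000. Drosha itself stood at 6.22 FPKM in Drosha-deficient and 42.1 FPKM in wild-type mRNA, and at 4.34 and 21.2 FPKM in long RNA. The 12 ES cell markers had a median log2 difference of 0.04 in mRNA, against -0.15 in long RNA. Sall4 was the only one called in either fraction, higher in mRNA at 105 FPKM in Drosha-deficient and 37.9 FPKM in wild-type cells. Of 22 fibroblast markers, 8 were lower and none higher of 17 measured in mRNA, and 9 lower and none higher of 16 in long RNA. Among those measured, Twist1 alone was above 0, with 16 below in mRNA and 15 in long RNA. Dcn, just under the minimum and so not measured, went the other way. It stood at 0.999 FPKM in Drosha-deficient and 0.0752 FPKM in wild-type mRNA, and at 0.967 and 0.0296 FPKM in long RNA. Among all measured protein-coding rows, 5.71% were higher and 6.28% lower in mRNA, and 3.19% higher and 4.33% lower in long RNA. The summed level of the fibroblast markers was 300.2 FPKM in Drosha-deficient and 577 FPKM in wild-type mRNA, and 156 and 326 FPKM in long RNA. Lum was the single marker at 0 in any of these libraries, in Drosha-deficient long RNA and in wild-type mRNA. Among 11 neuronal markers with a row, a list that includes Gap43, 1 of 7 measured was higher in mRNA, Nefl at 10.6 FPKM in Drosha-deficient and 3.93 FPKM in wild-type cells. The part that a change in cell mix may have in the values below was not tested, and fewer cells of a type and less RNA per cell cannot be told apart.

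In short RNA all 10 rows lost more than 99% of their level, which is how they were chosen and is given as a description only. The rows with the most short RNA in wild-type cells were Vmp1, at 30.1 FPKM in Drosha-deficient and 12979 FPKM in wild-type cells, and Clcn5, at 12.2 and 10334 FPKM. Mcm7 had 24.2 FPKM in Drosha-deficient and 6455 FPKM in wild-type cells. The Tlcd2 row, which holds Mir22, had 21.9 and 5456 FPKM. In these rows the Drosha-deficient library kept a small signal.

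The middle of the range held kinase, ligase and sperm gene rows. Map2k4 had 8.08 FPKM in Drosha-deficient and 2686 FPKM in wild-type cells, and Huwe1 had 10.9 and 2477 FPKM. Spaca6 had 2.23 FPKM in Drosha-deficient and 927 FPKM in wild-type cells. The lowest wild-type levels were those of Slit3, at 1.62 and 403 FPKM, Gap43, at 0.233 and 316 FPKM, and Xkr6, at 0.0411 and 249 FPKM. The log2 differences ran from -9.61 for Clcn5 to -7.27 for Slit3, with a median of -8.00. All 10 were called lower, against 12.7% of 1795 measured protein-coding rows, and nothing is read from this count.

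By log2 difference the 10 are the lowest protein-coding rows of short RNA but for Ttll10, which is not among them. Just inside the choice stood Slit3, and Ttll10 lay between Huwe1 and Slit3 with 0.643 FPKM in Drosha-deficient and 309 FPKM in wild-type cells, a log2 difference of -7.56. Just outside stood R3hdm1, at 24.9 and 3344 FPKM (-7.01), and Sfmbt2, at 198 and 23522 FPKM (-6.88). In mRNA R3hdm1 was uncalled, at 35.3 FPKM in Drosha-deficient and 43.4 FPKM in wild-type cells (-0.29). Sfmbt2 was called lower in mRNA, at 10.7 and 80.4 FPKM (-2.80), and uncalled in long RNA, at 6.01 and 6.25 FPKM. Sfmbt2 is not among the other hosts found by coordinates below.

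Of the 20 hairpins, only Mir99b had a row of its own in the tables, and 18 lay inside the locus listed for a member's row. The value of a host row in short RNA is therefore that of the whole row, and fragments of the hairpins cannot be told apart from fragments of the host transcript. A fragment adds more FPKM on a short transcript than on a long one. On a transcript as long as the Mir125a hairpin, 68 bases, 1 fragment stands for about 0.676 FPKM in the Drosha-deficient and 0.804 FPKM in the wild-type long RNA library, and for about 5.03 and 5.55 FPKM in short RNA. The same limit applies to the host rows in mRNA and long RNA.

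**Figure D1:**
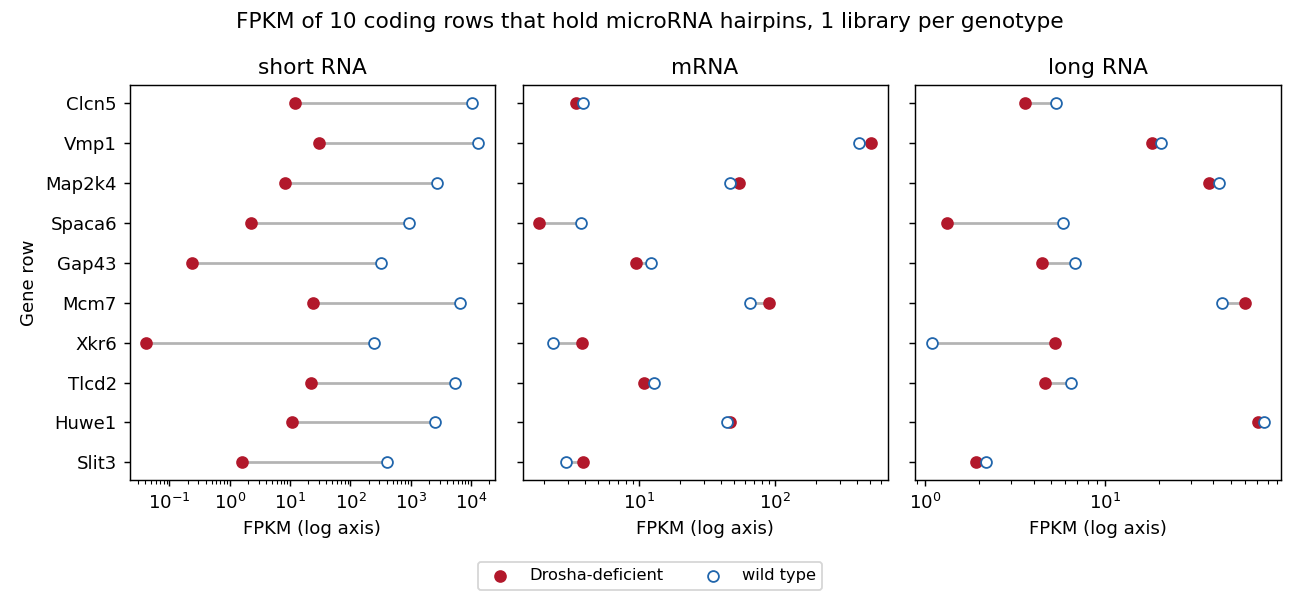
FPKM (log axis, with its own range in each panel) of the 10 gene rows in short RNA, mRNA and long RNA; filled red points are the Drosha-deficient and open blue points the wild-type library, 1 library each. In short RNA every Drosha-deficient point lies far left of its wild-type point, while in mRNA and long RNA most pairs lie close together, with Spaca6 and Xkr6 apart in long RNA.

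The mRNA of the hosts stayed within 2-fold on the log2(FPKM + 1) scale for all 10 genes. None was called, where 5.71% of 11025 measured protein-coding rows were called higher and 6.28% lower. The median log2 difference was 0.15, against 0.01 over all measured protein-coding rows, with 6 members above 0 and 4 below.

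Among the hosts of higher level, Vmp1 had 505 FPKM in Drosha-deficient and 415 FPKM in wild-type mRNA, a log2 difference of 0.28. Mcm7 had 90.6 and 65.1 FPKM (0.47), Map2k4 had 54.5 and 46.6 FPKM (0.22), and Huwe1 had 46.7 and 44.3 FPKM (0.08). These 4 were a little higher in the Drosha-deficient library, by 1.06- to 1.39-fold. The Vmp1 row ranked above 99.3% of measured protein-coding rows in wild-type mRNA and above 75.5% of them in wild-type long RNA, where it had 18.1 FPKM in Drosha-deficient and 20.5 FPKM in wild-type cells. The tables were scaled separately, so only the ranks and not the levels are set side by side.

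The hosts of low level spread more. Xkr6 had 3.79 FPKM in Drosha-deficient and 2.31 FPKM in wild-type mRNA (log2 difference 0.53), and Slit3 had 3.87 and 2.90 FPKM (0.32). Spaca6 had 1.83 FPKM in Drosha-deficient and 3.75 FPKM in wild-type mRNA, with a log2 difference of -0.75 that is lower than that of all but 11.9% of protein-coding rows; without the pseudocount it was 2.05-fold lower. Gap43 had 9.47 and 12.3 FPKM (-0.34), the Tlcd2 row 10.9 and 12.9 FPKM (-0.23), and Clcn5 3.44 and 3.89 FPKM (-0.14). Spaca6 and Xkr6 thus mark the ends of the range in mRNA.

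In long RNA 8 of the 10 stayed within 2-fold as well, 1 was called lower and 1 higher. Over all measured protein-coding rows of long RNA, 10178 in number, 4.33% were called lower and 3.19% higher. The median of the 10 was -0.18, against -0.04 over those rows.

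Spaca6 was the lower gene, with 1.31 FPKM in Drosha-deficient and 5.80 FPKM in wild-type long RNA, 4.42-fold lower and a log2 difference of -1.56. Of protein-coding rows, 0.943% had a lower difference. Xkr6 was the higher gene, with 5.27 FPKM in Drosha-deficient and 1.09 FPKM in wild-type long RNA, 4.84-fold higher and a log2 difference of 1.59, above that of 99.0% of protein-coding rows. Both genes moved in the same direction in mRNA, by less than the size of a call. Both calls rest on levels under 6 FPKM. With a pseudocount of 5 the log2 differences were -0.78 for Spaca6 and 0.75 for Xkr6, so neither was called. The locus of the Xkr6 row is shared by a row named Gm15918. It ends at 63820809, before the RefSeq end of Xkr6 at 63845706. The rows of Clcn5 and Slit3 share their loci with rows named Gm26401 and Gm12123.

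The remaining 8 spanned -0.52 to 0.41. Gap43 had 4.46 FPKM in Drosha-deficient and 6.81 FPKM in wild-type long RNA (-0.52), Clcn5 3.59 and 5.30 FPKM (-0.46), and the Tlcd2 row 4.64 and 6.43 FPKM (-0.40). Map2k4 had 38.0 and 43.2 FPKM (-0.18), Slit3 1.92 and 2.16 FPKM (-0.12), and Huwe1 71.2 and 76.4 FPKM (-0.10). Mcm7 was the only one of these above 0, at 59.9 and 44.9 FPKM (0.41), and it was above 0 by a like amount in mRNA. Vmp1, whose long RNA is given above, stood at -0.17.

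In the authors' deposited table the lowest q-value of the 10 genes was 0.999 in mRNA and 0.977 in long RNA, there for Spaca6. The same tables give q under 0.05 to 19 of 16918 tested rows in mRNA and 19 of 16160 in long RNA. These q-values compare single libraries and not the genotypes, so a high q-value is not read as a lack of change. In short RNA the q-values of some members were high as well, while those of others, Spaca6, Xkr6 and Huwe1 among them, were low. Among those with high q-values were Vmp1, at 30.1 FPKM in Drosha-deficient and 12979 FPKM in wild-type cells, and the Tlcd2 row, at 21.9 and 5456 FPKM.

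The difference in long RNA was below the difference in mRNA for 9 of the 10 genes, Xkr6 being the exception. The median of long RNA minus mRNA was -0.25 on the log2 scale for the 10 genes. It was -0.08 over 10093 protein-coding rows measured in both fractions, of which 59.7% lay below 0, and -0.13 over 322 other coding hosts, of which 66.5% did. The gap was largest for Xkr6 (1.05) and Spaca6 (-0.81) and smallest for Mcm7 (-0.06). The 10 genes were chosen by short RNA, and their rows can include hairpin fragments in long RNA too. The comparison with other rows is therefore not independent of the choice, and the share of hairpin fragments was not tested.

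**Figure D2:**
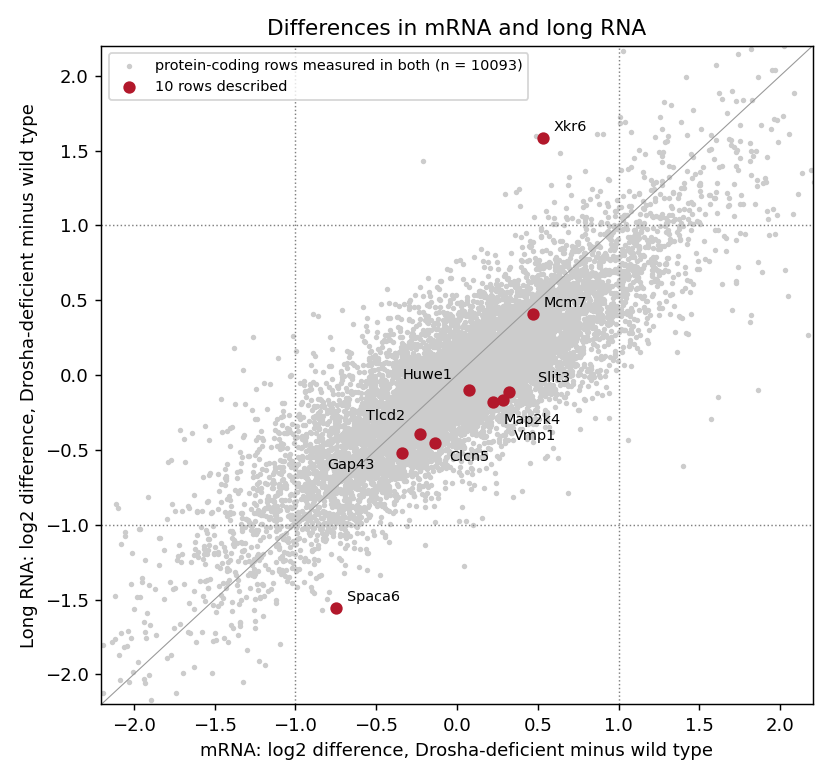
Log2 difference (Drosha-deficient minus wild type, pseudocount of 1) in mRNA on the x axis and in long RNA on the y axis; grey points are 10093 protein-coding rows measured in both fractions, of which 106 lie outside the axes, red points are the 10 genes, dotted lines mark 2-fold and the diagonal equal differences. Of the labelled genes 8 lie within 2-fold on both axes, while Xkr6 lies at 1.59 and Spaca6 at -1.56 in long RNA.

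Spaca6 is the member in which hairpins and host start lie closest. RefSeq gives Spaca6 a span of 17826085 to 17843010 on the plus strand and a transcript start at 17830975, and the Mir125a hairpin (17830812 to 17830879) ends 95 bases before that start. The row of the tables begins at 17830719, so Mir125a is inside it, and Mirlet7e and Mir99b lie just before it. The 300 bases from 250 before to 50 after the start, chr17:17830725-17831024 on the plus strand, are shown because they contain the whole hairpin, in capitals.
Spaca6 start: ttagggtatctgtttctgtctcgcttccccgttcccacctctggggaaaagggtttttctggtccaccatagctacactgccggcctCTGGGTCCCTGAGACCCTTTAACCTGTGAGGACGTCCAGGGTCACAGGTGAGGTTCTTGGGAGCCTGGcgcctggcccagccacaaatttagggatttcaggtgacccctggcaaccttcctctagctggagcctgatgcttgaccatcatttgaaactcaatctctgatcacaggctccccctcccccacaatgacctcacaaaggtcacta
Of 32851 RefSeq start windows of this length, 9 (0.0274%) hold a whole hairpin on their strand, and Spaca6 is the single member with such a window.

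Mir99b, the neighbour with its own row (chr17:17830188-17830257), was listed at 0 in Drosha-deficient cells in all 3 fractions. In wild-type cells it stood at 22993 FPKM in short RNA, 409 FPKM in long RNA and 8.80 FPKM in mRNA. A hairpin row thus had signal in the wild-type long RNA library too. The Spaca6 row differed by -4.49 FPKM between the Drosha-deficient and the wild-type long RNA library. A difference of that size equals about 5.59 fragments of the wild-type library on a transcript of the length of Mir125a. The share of the Spaca6 difference that comes from hairpin fragments was not tested. RefSeq also places Has1, another coding gene, across part of the Spaca6 span, and no source used here says whether reads were counted by strand.

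MicroRNA genes with a row of their own show how hairpin rows behaved in the fractions used for the hosts. Of 353 such rows, 66 were measured in both mRNA and long RNA. In mRNA 34 of the 66 were higher and 21 lower (median 1.08 on the log2 scale), and in long RNA 12 were higher and 36 lower (median -1.76). Over all measured rows, 1275 of 14752 were higher and 1170 lower in mRNA, and 872 of 13933 were higher and 960 lower in long RNA. Of 157 measured in short RNA, 6 were higher and 146 lower (median -5.55). On a transcript as long as the Mir125a hairpin, 1 fragment stands for about 0.609 FPKM in the Drosha-deficient and 0.691 FPKM in the wild-type mRNA library, so a hairpin row can reach the minimum of 1 FPKM with very few fragments. No test was made of the difference between hairpin rows and host rows.

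Genes that flank the hosts on the same chromosome gave a comparison, though some of them lie far from the host. The nearest measured protein-coding gene on each side of each member makes 20 genes. In mRNA 1 of the 20 was higher and none was lower. Their median log2 difference was 0.38, in a range of -0.75 to 1.99. In long RNA none of 19 measured was called, with a median of 0.10 and a range of -0.65 to 0.68.

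The called neighbour was Lsamp, a cell adhesion gene next to Gap43, with 123 FPKM in Drosha-deficient and 30.3 FPKM in wild-type mRNA. In long RNA Lsamp was near 0, at 0.0128 and 0.00252 FPKM, and was not measured. On the other side of Gap43, Zbtb20, 535 kb away, had 2.72 and 2.31 FPKM in mRNA. Around Spaca6, Lnpep, 202 kb away, had 26.1 FPKM in Drosha-deficient and 15.9 FPKM in wild-type long RNA. Ppp2r1a, 3102 kb away, had 59.5 and 57.7 FPKM, and both were uncalled. Beside Xkr6, Mtmr9 had 12.9 FPKM in Drosha-deficient and 13.0 FPKM in wild-type long RNA, and Pinx1 had 7.67 and 6.61 FPKM. The tables list Mcm7 and its neighbours Cops6, Ap4m1 and Taf6 under the same locus of 26.4 kb, with a row each, so these are not separate loci. Cops6 had 172 FPKM in Drosha-deficient and 125 FPKM in wild-type mRNA (0.46), and Ap4m1 had 8.95 and 11.0 FPKM (-0.28). Tubd1 beside Vmp1 had 4.14 FPKM in Drosha-deficient and 7.66 FPKM in wild-type mRNA (-0.75), and Ptrh2 had 14.1 and 13.6 FPKM.

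At the remaining loci no neighbour was called either. Flanking Map2k4, Elac2 (686 kb away) and Zkscan6 stood at 0.59 and -0.13 in mRNA on the log2 scale. Flanking Clcn5, Shroom4 (516 kb away) and Usp27x stood at 0.68 and 0.003. Near the Tlcd2 row, Wdr81 and Prpf8 stood at 0.43 and 0.71. Flanking Huwe1, Phf8 (167 kb away) and Hsd17b10 stood at 0.29 and -0.57. Flanking Slit3, Spdl1 (288 kb away) and Pank3, the second a microRNA host itself, stood at 0.30 and 0.42.

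The 10 genes were then set beside other coding genes that hold hairpins. By RefSeq coordinates, 459 protein-coding genes hold a hairpin on their own strand, and 409 of them, apart from 7 of the members, have a row of their single name. Of these, 343 were measured in mRNA, where 25 were higher and 20 lower and the median log2 difference was 0.11. In long RNA 324 were measured, with 10 higher, 10 lower and a median of -0.02. Over all measured protein-coding rows, 5.71% were higher and 6.28% lower in mRNA, and 3.19% higher and 4.33% lower in long RNA.

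Of the 409, 32 had a short RNA row at least 2-fold lower. Without Ttc28, which was not measured in mRNA, and Slit2, which was not measured in long RNA, 30 of them were measured in both. In mRNA 3 of the 30 were higher and 5 lower (median -0.14), and in long RNA 1 was higher and 4 were lower (median -0.23). Another 43 had short RNA that was measured and not lower, and 42 of these were measured in both fractions. Of these 42, 7 were higher and 1 lower in mRNA (median 0.30), and 4 were higher and 1 lower in long RNA (median 0.15). The shares over measured protein-coding rows were 5.71% higher and 6.28% lower in mRNA, and 3.19% and 4.33% in long RNA. The difference between the 30 and the 42 hosts was not tested. The hosts were split by the short RNA of the whole row, which can include fragments of the host transcript. A host with less RNA in every fraction can therefore enter the group with lower short RNA for that reason alone. The medians of the groups are thus not independent of the split.

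Named by the size of their difference in both fractions, the highest hosts were Dgcr8, Tenm4 and Pdia4. Dgcr8, the partner of Drosha, whose own mRNA Drosha is known to cut, had 66.2 FPKM in Drosha-deficient and 11.9 FPKM in wild-type long RNA. Tenm4, a teneurin of neurons, had 6.19 and 1.78 FPKM in long RNA, and Pdia4, a chaperone of the endoplasmic reticulum, had 130 and 52.6 FPKM. The lowest were Igf2, Anxa5 and Oaz1. Igf2, a fetal growth factor, had 0.214 FPKM in Drosha-deficient and 15.6 FPKM in wild-type long RNA. Anxa5, an annexin that binds phosphatidylserine, had 3.92 and 31.5 FPKM, and Oaz1, the antizyme that restrains polyamine synthesis, had 33.1 and 153 FPKM. In all, 8 other hosts were higher in both fractions and 9 lower in both.

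Of these 17, Nfyc, Igf2, Oaz1, Copz2 and Gabre also had lower short RNA, and they were chosen for mention after their values were seen. Nfyc, a subunit of the CCAAT-binding factor NF-Y and host of Mir30c-1 and Mir30e, had 0.693 FPKM in Drosha-deficient and 52.2 FPKM in wild-type short RNA, and 32.0 and 9.87 FPKM in mRNA. Copz2, a coat protein gene and host of Mir152, had 0.0279 and 31.6 FPKM in short RNA, and 8.14 and 20.1 FPKM in mRNA. Hosts whose short RNA was lower thus include genes higher and lower in mRNA.

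**Figure D3:**
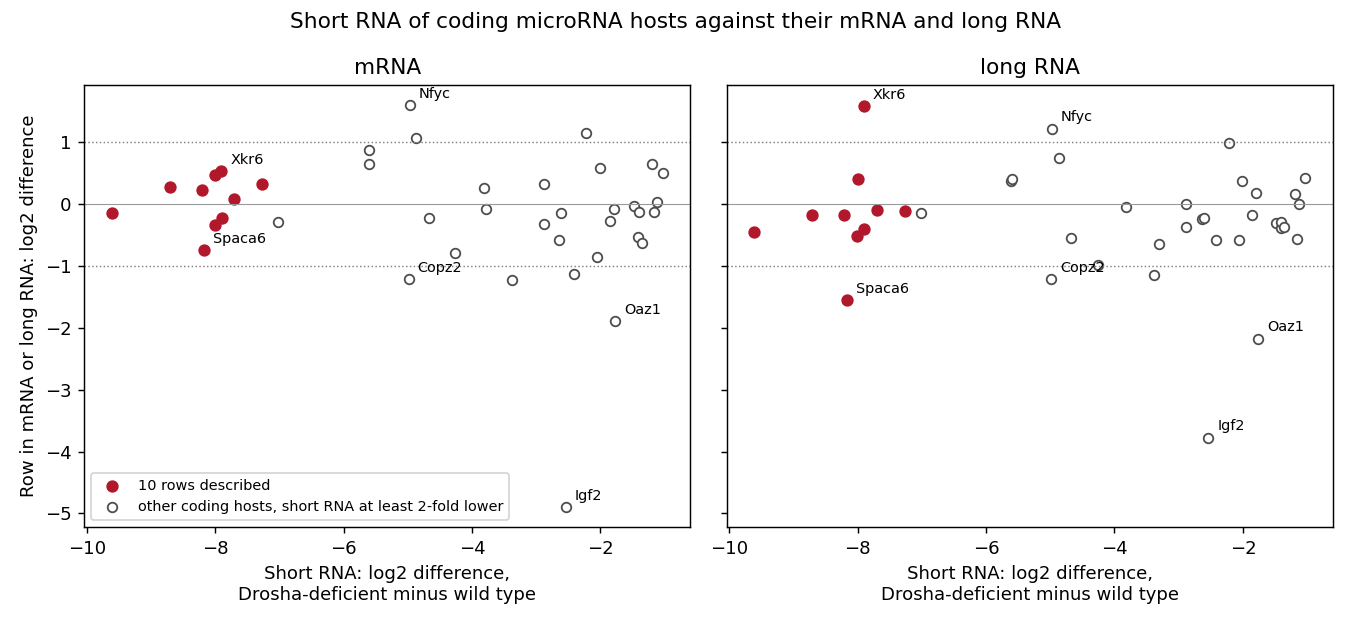
Log2 difference (Drosha-deficient minus wild type, pseudocount of 1) of short RNA on the x axis against that of mRNA (left) and long RNA (right) on the y axis; red points are the 10 genes and open circles the other coding hosts whose short RNA was at least 2-fold lower, 31 per panel (Ttc28 is absent from the left and Slit2 from the right), and dotted lines mark 2-fold. The red points lie left of -7 on the x axis and mostly near 0 on the y axis, and Igf2 lies lowest in both panels.

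Relatives and working partners of the hosts were read from hand-made lists. For every list below, the shares over all measured protein-coding rows were 5.71% higher and 6.28% lower in mRNA. In long RNA they were 3.19% higher and 4.33% lower. The 21 measured genes of the replicative helicase and its loading at origins, which include Mcm7, were called in neither fraction, with a median of 0.00 in mRNA; the median was -0.02 in long RNA, where Mcm7 was the highest of them. All 22 measured HECT ubiquitin ligases, which include Huwe1, were uncalled too, with medians of 0.38 and 0.16. Above 0 in mRNA were 20 of the 22, against 5613 of 11025 measured protein-coding rows. The 8 measured chloride channels and transporters in mRNA and the 7 in long RNA, with Clcn5 among them, were uncalled, with medians of -0.10 and 0.08; Clcn5 was the lowest of the 7 in long RNA.

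Signalling partners moved in single genes. The JNK and p38 list holds kinases, scaffolds and transcription factors. Of its 16 measured genes, Map3k5, a stress kinase upstream of Map2k4, was higher in mRNA with 7.23 FPKM in Drosha-deficient and 2.57 FPKM in wild-type cells. Mapk13, a p38 kinase, was lower in mRNA, at 12.3 and 39.1 FPKM, and in long RNA, at 4.67 and 13.7 FPKM. Of 6 genes of the Slit and Robo list measured in mRNA, Srgap genes among them, Robo4, the endothelial receptor, was higher at 4.55 and 1.45 FPKM. None of 4 measured was called in long RNA.

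Among 22 measured autophagosome genes, Wipi1, a lipid-binding protein of early autophagosomes, was lower in mRNA, at 3.85 FPKM in Drosha-deficient and 14.0 FPKM in wild-type cells, and in long RNA, at 1.17 and 7.41 FPKM. Map1lc3a was lower in long RNA (5.49 and 13.5 FPKM) and Atg13, a subunit of the starter kinase complex, higher in mRNA (30.2 and 14.4 FPKM). Vmp1 was called in neither fraction. Of growth cone proteins, 11 measured in mRNA and 10 in long RNA, Stmn1 was lower in mRNA (151 and 349 FPKM), Dpysl3 (22.0 and 8.94 FPKM) and Crmp1 (60.6 and 26.9 FPKM) were higher in mRNA, and Dpysl2 was lower in long RNA (4.62 and 12.6 FPKM). Gap43 was called in neither.

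The lists for the other members were small. Of 12 measured TLC domain genes in mRNA, Cers4, a ceramide synthase, was lower at 9.43 FPKM in Drosha-deficient and 23.7 FPKM in wild-type cells, and none of 10 was called in long RNA. Of the XK family 3 genes were measured in each fraction, and Xkr6 in long RNA was the only call. Of the sperm and egg fusion genes 3 were measured in mRNA, all between -0.75 and -0.63, and Spaca6 was the only one measured in long RNA. Across these lists the called genes were other genes than the hosts, but for Xkr6 and Spaca6 in long RNA.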

How the data were processed

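The authors deposited 3 tables of gene-level FPKM, p-values and q-values, for mRNA, long RNA and short RNA, with wild type as first and Drosha-deficient as second value, per the file headers. The submitters' processing notes name TopHat2 2.0.10, Cuffdiff, Cufflinks 2.1.1 and bcl2fastq 1.8.4 and the build mm10/GRCm38. Annotation, strand use and library scaling: not given in the sources used here. Per the labels' protocols, long and short RNA were separated with a small RNA isolation kit, mRNA came from an oligo-dT selection, and a small RNA kit was used for all libraries. By elimination, the long RNA table was taken to hold the samples titled total RNA. The Dnmt1-deficient and methylation samples were not used here.

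No count model was run on FPKM. Calls and log2 differences used a pseudocount of 1, a minimum of 1 FPKM and a 2-fold threshold; the functions were tested on simulated data. With 1 library per genotype there is no test, and intervals were not computed. Fragment values come from the steps of low FPKM in predicted genes with Gm names of 500 to 3000 bases and are approximate. Rows were joined by identifier, and lists by the mRNA table's single names. Host strands came from the RefSeq start-window table, which lacks 4408 of 21900 coding genes, Gap43 and Xkr6 among them; sequences are RefSeq GRCm38.p6, and 19 of 20 hairpins had a mature sequence. Named genes were all members, their hairpins, Drosha, the flanking genes, the 3 highest and 3 lowest other hosts in both fractions, and up to 4 called genes per list. Of the list named after other coding hosts, 2 of 34 measured genes were higher and 4 lower in mRNA, and 1 higher and 3 lower of 30 in long RNA. Members and lists were chosen with earlier results of these data known. Python 3.11.15, pandas 2.3.3 and numpy 2.4.6 were used.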

Additional observations from a re-analysis of the deposited data

How the results depend on the processing

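The 10 members stayed uncalled in mRNA under every alternative in which they were measured. Spaca6 was just short of a call there, at -0.996 with a pseudocount of 0.1. In short RNA the 10 members stayed lower, which follows from how they were chosen and is given as a description only. No called value changed sign, but neither the pseudocount nor the minimum can change a sign, so nothing is read from this. With a pseudocount of 5, no member was called in long RNA (0 higher, 0 lower). With a minimum of 5 FPKM, 6 members were measured in mRNA. The members' median log2 difference was 0.15, 0.12 and 0.14 in mRNA with a pseudocount of 0.1, of 5 and after centring on the protein-coding median. In long RNA it was -0.18, -0.15 and -0.14, and -0.18 with the minimum of 5 FPKM, and in short RNA -8.50, -7.48 and -7.97. With a pseudocount of 0.1, 1884 rows were lower in mRNA and 1592 in long RNA, and 19 other hosts were higher and 24 lower in long RNA. With a pseudocount of 5, 551 rows were higher and 373 lower in mRNA, 315 and 335 in long RNA, and 131 and 279 in short RNA; among other hosts 12 were higher and 4 lower in mRNA, and 3 and 4 in long RNA. With a minimum of 5 FPKM, 779 rows were lower in mRNA and 542 higher in long RNA, and 12 other hosts were lower in mRNA and 6 in long RNA. With all rows but failed ones, 822 rows were higher and 883 lower in short RNA. With hairpins on either strand, 16 other hosts were lower in long RNA. When flanking genes had to be measured in both fractions, a choice made after seeing the data, none of 20 was called in mRNA. The cause of these shifts was not tested. No paired analysis was possible because each genotype has 1 library per fraction. Each genotype's single library limits all 10 members, and Spaca6, Xkr6, Slit3 and Clcn5 were under 6 FPKM in mRNA and long RNA.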
